A study of Mus musculus with 10 samples.

Results

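The 10 genes of VEGF and angiopoietin signalling described here were followed in whole-brain RNA of newborn mice, chosen by mouse symbol from a table of 55471 Ensembl gene identifiers: Vegfa, Flt1, Kdr, Nrp1, Tek, Tie1, Angpt1, Angpt2, Pdgfb and Sox17. All 10 were found under a single identifier each, and all 10 passed the count minimum. The study compared 5 Swiss Webster pups with hypoxic-ischemic brain injury and no treatment (pups 1 to 5) with 5 pups with the injury that were given allopregnanolone (pups 6 to 10). All are wild type, and the design text gives neonatal day 5 without saying whether injury or collection fell on it. Both groups carry the injury, so the comparison is between treated and untreated injured brains, and no uninjured brain was analysed here. Allopregnanolone is a steroid made from progesterone that enhances the action of GABA on its chloride channels.

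Vascular endothelial growth factor A (VEGF-A) is secreted by glia, neurons and other cells and drives the sprouting of blood vessels through receptors on endothelial cells. Angiopoietins act on the endothelial receptor TIE2, and in general angiopoietin 1 activates it and keeps vessels quiet while angiopoietin 2 competes with it and loosens them. Endothelial cells in turn secrete PDGF-B, which recruits the pericytes that wrap capillaries, and in the newborn brain these pathways shape a vessel bed that is still growing.

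Library totals ran from 18656836 to 34270723 estimated counts, treated library 6 being the deepest. Levels are in CPM, counts brought to a common library size, after TMM scaling, a correction for library composition. Of 17101 genes tested with edgeR's quasi-likelihood test, 1131 were higher and 795 lower with treatment at an adjusted p under 0.05. With library totals alone as the scaling, this split was 783 higher and 1451 lower, and the median of all genes moved from -0.0046 to -0.06 on the log2 scale. All counts are of whole brain, and none of the markers of neurons, astrocytes, oligodendrocytes, endothelium or mural cells listed here was at 0 in all libraries. The names of untreated libraries 1 to 3 carry another prefix than the rest. What the prefix stands for is not given in the sources used here, and since the other prefix is found in the untreated group alone, results without these 3 libraries rest on untreated libraries 4 and 5.

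With allopregnanolone Angpt1, the activating ligand of TIE2, was 1.81-fold lower, while the VEGF receptor gene Flt1 rose 1.23-fold and the endothelial transcription factor gene Sox17 rose 1.45-fold. The other 7 genes, among them Vegfa itself and the main VEGF receptor gene Kdr, did not pass the threshold. Thus 3 of 10 genes were called, 30.0%, against 11.3% of all genes tested (6.61% higher and 4.65% lower). For 2 of the 10, Angpt1 and Flt1, the groups did not overlap, against 9.64% of all genes. The median log2 fold change of the 10 was -0.05, beside -0.0046 over all genes. Without untreated libraries 1 to 3 none of the 10 passed, and over all genes 80 were higher and 25 lower.

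**Figure D1:**
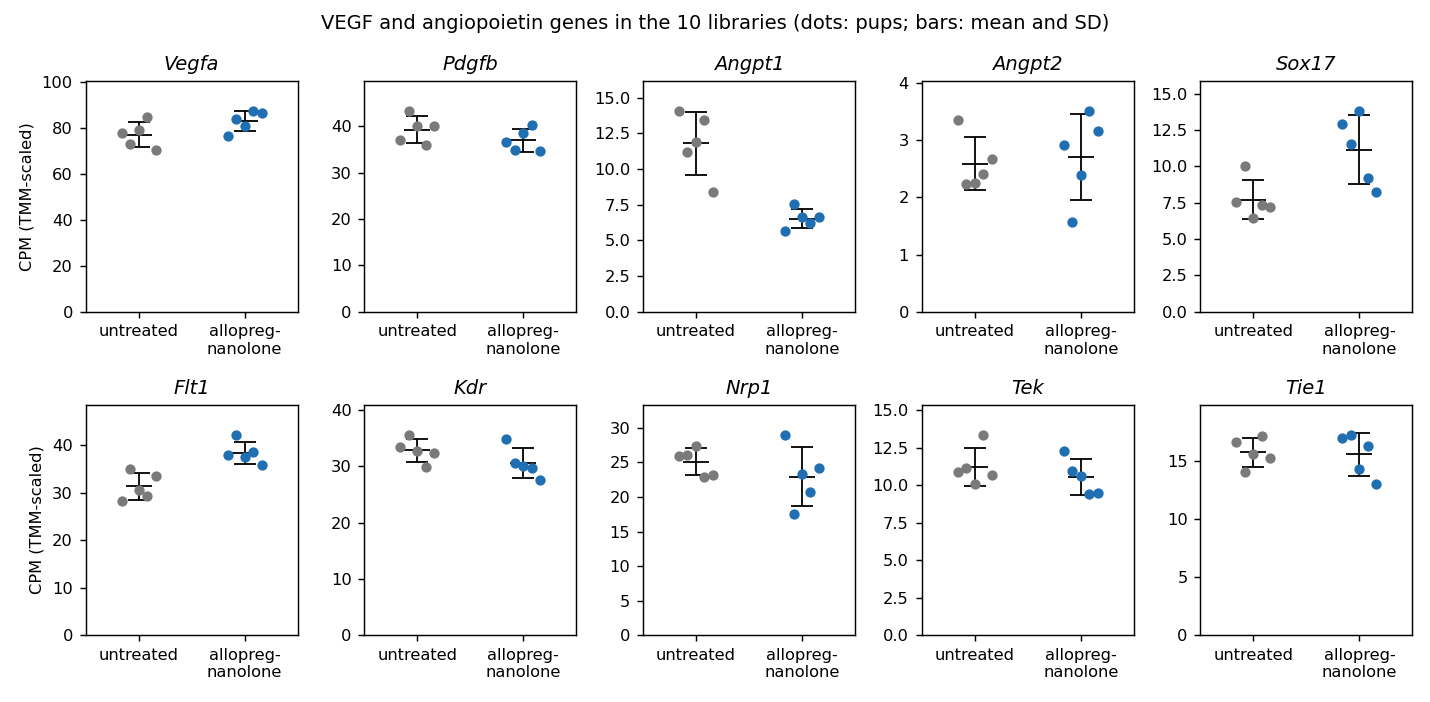
TMM-scaled CPM (vertical axis, from 0) of each of the 10 genes in the 5 untreated (grey) and 5 treated (blue) libraries, with bars for the mean and SD. All 5 treated libraries lie below every untreated library for Angpt1 and above every untreated library for Flt1, while the groups overlap for the other genes.

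Among the ligands Angpt1 changed most. Angpt1 (ENSMUSG00000022309, chromosome 15, 42424723 to 42676977 on the minus strand, GRCm38) stood at 14.1, 11.2, 11.9, 13.4 and 8.41 CPM in untreated libraries 1 to 5 and at 5.67, 7.55, 6.61, 6.18 and 6.61 CPM in treated libraries 6 to 10. The lowest untreated library, 5, was still above the highest treated library, 7. The means were 11.8 ± 2.21 and 6.52 ± 0.691 CPM (n = 5 each, SD), and the log2 fold change was -0.86 (edgeR, SE 0.13, adjusted p = 0.00218). Counts behind these values ran from 133 to 360 a library. The fall kept its direction in 21 of 21 alternative analyses and passed the threshold in 20, with adjusted p from 3.46e-07 to 0.0951. The exception was the analysis without untreated libraries 1 to 3, which gave -0.75 with an adjusted p of 0.0951. In whole-brain RNA, fewer cells that express a gene and less RNA in each such cell cannot be told apart. Of the merged exons of Angpt1, 14.2% lie opposite those of the antisense gene Gm17473, which averaged 2 counts a library.

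Angpt2, the context-dependent antagonist of TIE2 made by endothelial cells, had the lowest level of the 10 genes, per length too. It measured 3.36, 2.24, 2.26, 2.40 and 2.67 CPM in the untreated and 2.92, 1.58, 2.38, 3.51 and 3.16 CPM in the treated libraries, from 28 to 98 counts. Treated library 7 was the lowest and treated library 9 the highest of all 10, so the treated values span the untreated ones. The log2 fold change was 0.07 (edgeR, SE 0.21, adjusted p = 0.856), with a 95% interval of the fold from 0.771 to 1.44. The coefficient of variation of Angpt2 was 18.0% untreated and 27.8% treated.

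Because both ligands bind the same receptor, their ratio was formed within each library, where scaling between libraries cancels. There were 0.241, 0.203, 0.193, 0.182 and 0.321 Angpt2 counts for each Angpt1 count in the untreated libraries, and 0.518, 0.215, 0.366, 0.570 and 0.482 in the treated ones. Treated libraries 6, 8, 9 and 10 were above all untreated libraries, and treated library 7 was among them. The ratio was 1.83-fold higher on average with treatment (two-sided exact permutation test over all assignments, p = 0.0238, adjusted p = 0.0595 over 5 ratios), which misses the threshold. Without treated library 7 the difference was 1.10 on the log2 scale in place of 0.87 and the adjusted p 0.0397, by the same exact permutation test. The other 12 alternatives missed the threshold, with adjusted p from 0.0595 to 0.317 by that exact test.

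Vegfa, the gene of the central ligand (ENSMUSG00000023951, chromosome 17, 46016993 to 46032369, minus strand), was nearly level. The untreated libraries held 78.0, 73.3, 79.0, 84.8 and 70.4 CPM and the treated ones 76.7, 84.0, 80.9, 87.4 and 86.4 CPM. Treated libraries 9 and 10 were the only ones above the highest untreated library, 4. Its log2 fold change was 0.11 (edgeR, SE 0.06, adjusted p = 0.254), and the 95% interval of the fold ran from 0.988 to 1.17. Pdgfb, which encodes the pericyte-recruiting ligand, held 36.0 to 43.3 CPM untreated (median 40.1) and 34.7 to 40.4 CPM treated (median 36.6), with a fold interval of 0.857 to 1.03 (adjusted p = 0.411, edgeR). The ratio of Pdgfb to Pdgfrb, the gene of its pericyte receptor, differed by -0.18 on the log2 scale (exact permutation p = 0.111, adjusted p = 0.139), and the groups overlapped.

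**Figure D2:**
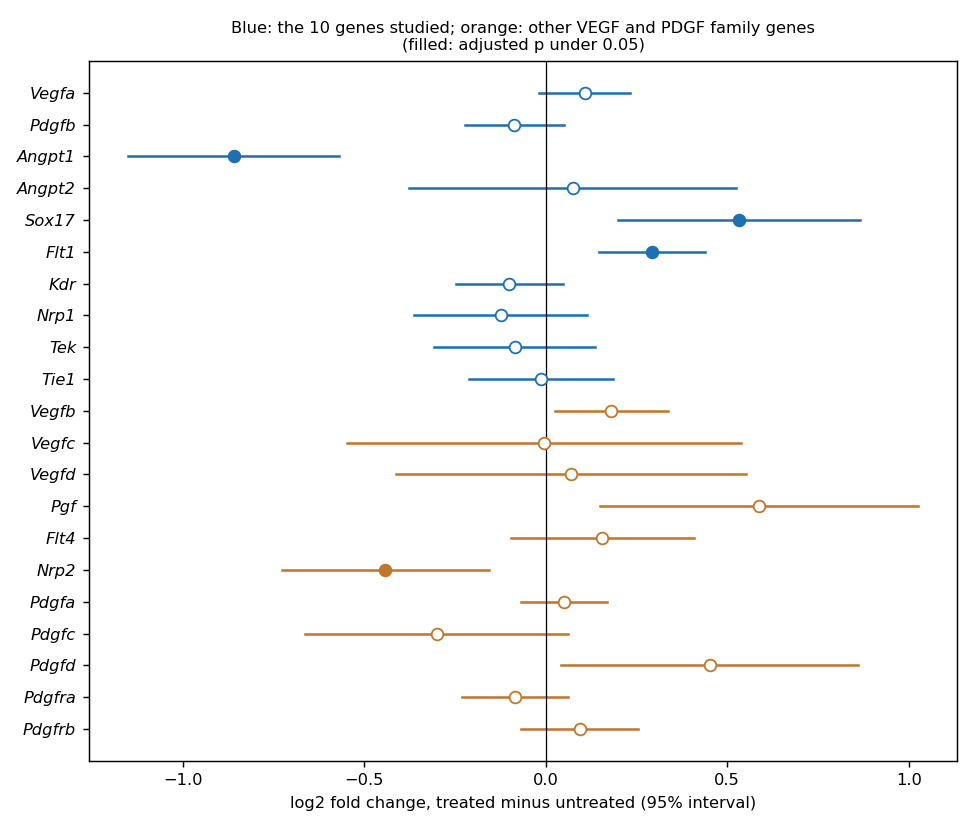
Log2 fold change, treated minus untreated, with its 95% interval for the 10 genes (blue) and for 11 other genes of the VEGF and PDGF families (orange), filled where the adjusted p is under 0.05. Angpt1 at -0.86 lies farthest from 0, Flt1 and Sox17 lie to the right, and of the other family genes Nrp2 at -0.44 is the only one filled.

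Of the receptors Flt1 alone passed. Flt1 encodes VEGFR1, which binds VEGF-A tightly, signals weakly and, also as a secreted form, acts as a decoy (ENSMUSG00000029648, chromosome 5, 147561604 to 147726011, minus strand). Gene counts do not separate the secreted from the membrane form. It stood at 28.3, 35.0, 30.5, 29.2 and 33.5 CPM in untreated and at 37.9, 42.1, 37.4, 38.4 and 35.9 CPM in treated libraries. Every treated library was above every untreated one, the closest being treated library 10 and untreated library 2. The means were 31.3 ± 2.85 and 38.3 ± 2.32 CPM (n = 5 each, SD) and the log2 fold change was 0.29 (edgeR, SE 0.07, adjusted p = 0.0162). Flt1 kept its direction in all 21 alternative analyses. It missed the threshold with the mean of red blood cell genes as a covariate (log2 fold change 0.28, adjusted p = 0.0899) and without untreated libraries 1 to 3 (log2 fold change 0.29, adjusted p = 0.157), both from edgeR.

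Kdr encodes VEGFR2, the receptor that carries most of the growth signal of VEGF-A (ENSMUSG00000062960, chromosome 5, 75932827 to 75978458, minus strand). Its values were 33.5, 35.6, 32.7, 29.9 and 32.4 CPM untreated and 34.9, 30.7, 30.0, 29.8 and 27.5 CPM treated. Treated library 6 was high and the other 4 treated libraries were below the untreated mean of 32.8 CPM. The log2 fold change was -0.10 (edgeR, SE 0.07, adjusted p = 0.373), with a fold interval of 0.842 to 1.03.

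Flt1 and Kdr thus stood in another proportion to each other in the 2 groups. There were 0.845, 0.983, 0.933, 0.975 and 1.03 Flt1 counts for each Kdr count in the untreated libraries and 1.09, 1.37, 1.25, 1.29 and 1.30 in the treated ones. The groups did not overlap, although untreated library 5 and treated library 6 were close. The ratio was 1.32-fold higher with treatment (two-sided exact permutation p = 0.00794, the smallest that 5 against 5 allows, adjusted p = 0.0397 over 5 ratios). Leaving out any of untreated libraries 1 to 5 ended this call, while the difference stayed between 0.36 and 0.43 on the log2 scale. The adjusted p from the exact permutation test was then 0.0794 for libraries 1 to 4 and 0.0595 for library 5. The call held with each of treated libraries 6 to 10 left out in turn (adjusted p = 0.0397, same exact test), with differences of 0.37 to 0.45. With 1 library left out, the exact p moves in steps of 0.00794.

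The proximal promoters of these receptor genes are printed because the members of the pair differed in response. They are RefSeq sequences of GRCm38.p6, running 5′ to 3′ on the minus strand from 250 bases before to 50 bases after the annotated start. Capitals mark any match, on either strand, to ACGTG or GCGTG (cores of hypoxia response elements), CCGGAA (a core bound by ETS factors, on which endothelial genes rely) or ACAAT (a core bound by SOX factors).
Flt1, chr5:147725962-147726261: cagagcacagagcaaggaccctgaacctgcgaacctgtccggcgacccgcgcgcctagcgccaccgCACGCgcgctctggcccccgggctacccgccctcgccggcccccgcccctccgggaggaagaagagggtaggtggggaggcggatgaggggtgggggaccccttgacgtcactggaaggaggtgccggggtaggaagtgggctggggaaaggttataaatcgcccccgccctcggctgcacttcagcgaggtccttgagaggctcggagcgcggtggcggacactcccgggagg
Kdr, chr5:75978406-75978705: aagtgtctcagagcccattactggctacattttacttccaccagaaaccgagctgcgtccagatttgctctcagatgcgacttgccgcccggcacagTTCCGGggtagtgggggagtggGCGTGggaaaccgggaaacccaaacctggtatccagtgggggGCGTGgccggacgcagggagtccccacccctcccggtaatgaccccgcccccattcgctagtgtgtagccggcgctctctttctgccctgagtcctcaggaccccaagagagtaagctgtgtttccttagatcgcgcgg
In this window Flt1 holds 1 match to GCGTG, and Kdr holds 2 to GCGTG and 1 to CCGGAA, with no overlap between matches. Only the exact strings named above were searched, so other sites for the same factors are left unmarked in both sequences. Of 32851 mouse promoters of the same length, 32.4% hold GCGTG, 14.9% CCGGAA, 19.6% ACGTG and 31% ACAAT, so these matches are common and are given as a description. Promoter entries were matched for 6 of the 10 genes (Vegfa, Flt1, Kdr, Nrp1, Tek and Tie1), the others being Angpt1, Angpt2, Pdgfb and Sox17.

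**Figure D3:**
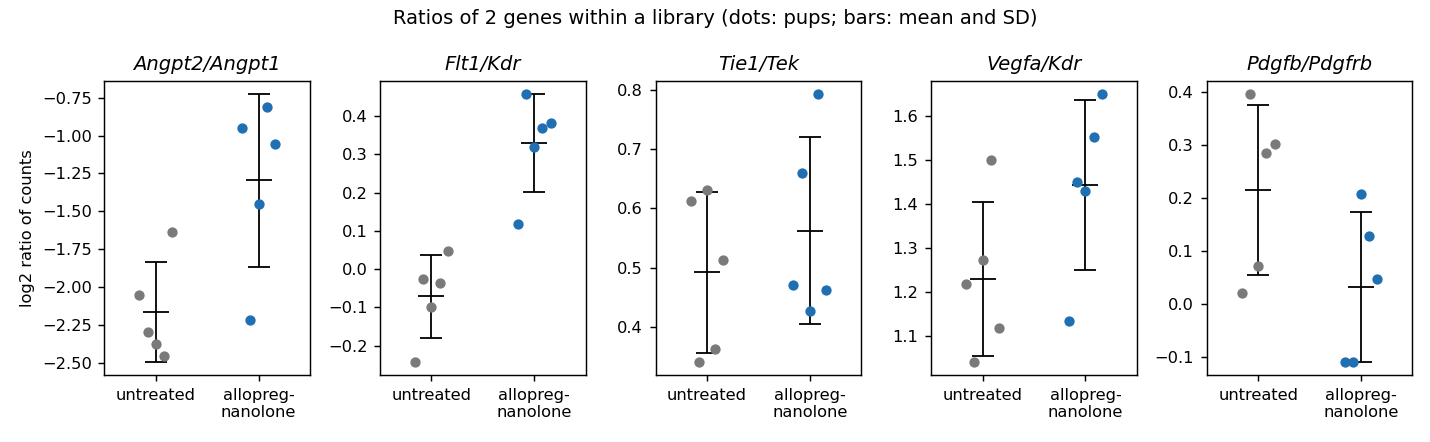
Log2 ratio of the counts of 2 genes within each library (vertical axes, ranges differing by panel) in untreated (grey) and treated (blue) pups, with bars for the mean and SD. For Flt1/Kdr all treated libraries lie above all untreated ones, while for Angpt2/Angpt1 treated library 7, at -2.22, lies among the untreated libraries.

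Nrp1 encodes neuropilin 1, a co-receptor that presents VEGF-A to VEGFR2 and that also serves as a receptor for semaphorins on growing axons. It measured 25.9, 26.0, 27.4, 22.9 and 23.2 CPM untreated and 29.0, 17.5, 23.4, 20.7 and 24.2 CPM treated. The treated libraries spread more widely, from the lowest value of all in library 7 to the highest in library 6, with a coefficient of variation of 18.6% against 7.79% untreated. The log2 fold change was -0.12 (edgeR, SE 0.11, adjusted p = 0.512), and the fold interval was 0.778 to 1.08.

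Tek encodes TIE2, the receptor of both angiopoietins, and Tie1 encodes its partner without a classical ligand of its own. Tek held 10.1 to 13.4 CPM untreated (median 10.9) and 9.41 to 12.3 CPM treated (median 10.6), with a fold interval of 0.808 to 1.10 (adjusted p = 0.641, edgeR). Tie1 held 14.1 to 17.2 CPM untreated (median 15.6) and 13.1 to 17.3 CPM treated (median 16.3), with a fold interval of 0.863 to 1.14 (adjusted p = 0.947, edgeR). The groups overlapped for both receptors. The Tie1 to Tek ratio differed by 0.07 on the log2 scale (exact permutation p = 0.476, adjusted p = 0.476). Vegfa to Kdr, the ratio of ligand to main receptor, differed by 0.21 (exact permutation p = 0.111, adjusted p = 0.139), and 4 treated libraries but not library 6 were above the untreated mean. The ligand Angpt1 therefore fell while the log2 fold change of its receptor gene Tek was -0.09 (SE 0.10).

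Sox17 encodes a SOXF transcription factor of endothelial cells, needed for arterial identity and known as a regulator of the maturing brain vasculature (ENSMUSG00000025902, chromosome 1, 4490931 to 4497354, minus strand). Values were 7.54, 10.0, 6.46, 7.35 and 7.21 CPM untreated and 12.9, 11.5, 13.8, 9.18 and 8.24 CPM treated. Treated libraries 6, 7 and 8 were above all untreated libraries, whereas treated libraries 9 and 10 were below untreated library 2. The log2 fold change was 0.53 (edgeR, SE 0.16, adjusted p = 0.0418), from means of 7.72 ± 1.36 and 11.1 ± 2.38 CPM (n = 5 each, SD). This call is the least stable of the 3. It was missed in 11 of 21 alternative analyses, with log2 fold changes of 0.45 to 0.64 over all 21. Leaving out untreated library 1, 3, 4 or 5 gave adjusted p = 0.0831, 0.104, 0.0948 or 0.0635 in edgeR, and leaving out treated library 6, 7 or 8 gave adjusted p = 0.0858, 0.0797 or 0.0938. It was also missed with library totals alone (adjusted p = 0.0538), with the pan-endothelial or red blood cell mean as a covariate (adjusted p = 0.130 and 0.157) and without untreated libraries 1 to 3 (adjusted p = 0.186), all from edgeR. Of the merged exons of Sox17, 16.8% lie opposite those of Gm37587, which averaged 0.3 counts a library.

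**Figure D4:**
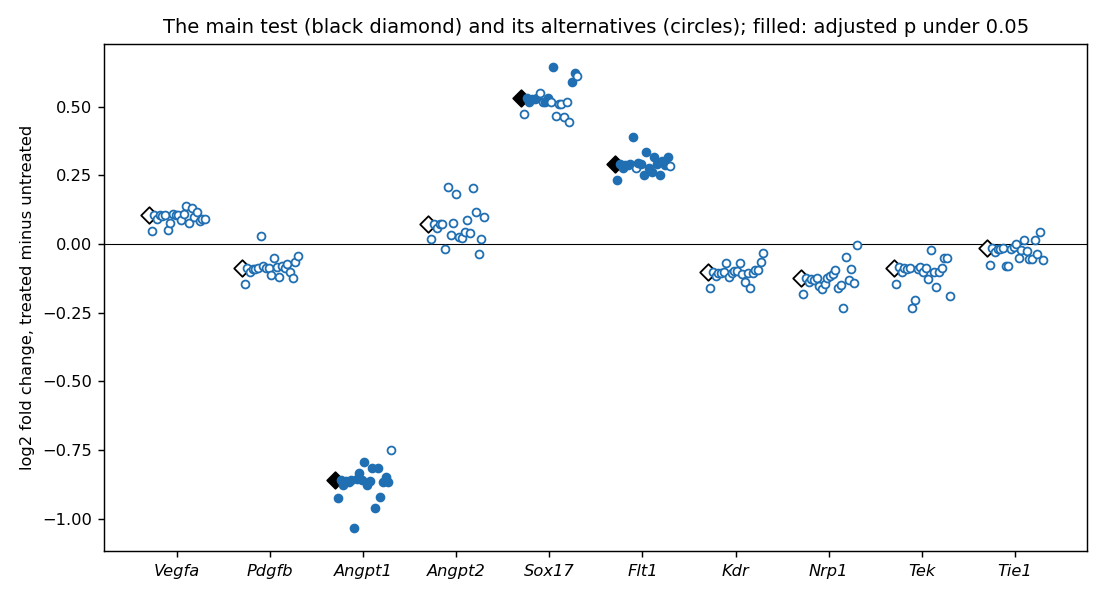
Log2 fold change of the 10 genes in the main test (black diamonds) and in up to 21 alternative analyses (circles), filled where the adjusted p is under 0.05. Angpt1 and Flt1 keep their side of 0 and are mostly filled, Sox17 keeps its side but is filled in 10 of 21, and the others lie near 0 with no filled symbol.

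Levels between genes were compared per length, as CPM per kilobase of merged exons (RPKM). In both groups Vegfa was highest, at 18.0 ± 1.29 untreated and 19.4 ± 1.02 RPKM treated, followed by Pdgfb at 9.45 ± 0.690 and 8.90 ± 0.586 RPKM (n = 5 each, SD), with no overlap between either gene and its neighbours in the order. Kdr, at 3.64 ± 0.226 RPKM, and Tie1, at 3.21 ± 0.248 RPKM, came next in the untreated group and overlapped. Nrp1, Tek, Flt1 and Angpt1 followed between 2.56 and 2.27 RPKM in the untreated group, with overlap between each and the next, so their order is not set by these data. In the treated group Angpt1, at 1.25 ± 0.133 RPKM (SD, n = 5), had no overlap with Tek above it or Angpt2 below it. Angpt2 was lowest in both groups, at 0.701 ± 0.126 and 0.735 ± 0.204 RPKM (n = 5 each, SD). Merged exons include those of rarely used transcripts, so a long gene model such as that of Flt1, with 13504 exon bases, gives a low value per length.

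Endothelial content was read from 18 pan-endothelial markers, of which 1, Ly6c1, rose and none fell, beside 6.61% higher and 4.65% lower over all genes. Their median log2 fold change was 0.08. Ly6c1 was not called in 3 of 21 alternatives, namely with either covariate and without untreated libraries 1 to 3. With the pan-endothelial or the red blood cell covariate Slc38a5 was called lower. The summed level of the 18 markers was 290 to 340 CPM untreated and 316 to 363 CPM treated. Set against this sum, Angpt1 went from 3.72 ± 0.602% to 1.92 ± 0.220% (n = 5 each, SD) with no overlap between the groups. Flt1 stood at 9.94 ± 1.24% and 11.3 ± 0.510%, Kdr at 10.4 ± 0.994% and 8.97 ± 0.421%, and Sox17 at 2.44 ± 0.399% and 3.26 ± 0.619% (n = 5 each, SD), with overlap for these 3 genes. With the mean of the pan-endothelial markers as a covariate, the log2 fold change of Angpt1 was -1.03 (adjusted p = 0.00515, edgeR) and that of Flt1 0.39 (adjusted p = 0.0173, edgeR). This mean includes Itm2a, a marker that was high in a single treated library, and a covariate without Itm2a was not tried.

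Of 11 other ligands and receptors of the VEGF and PDGF families, 1 fell and none rose, with a median log2 fold change of 0.07, a count near the 11.3% of all genes called. The gene that fell was Nrp2, neuropilin 2, a co-receptor for VEGF-C and for class 3 semaphorins. It measured 75.6, 77.5, 91.1, 74.5 and 77.3 CPM untreated and 75.4, 40.0, 64.1, 48.8 and 62.5 CPM treated. Treated library 6 was at the untreated level and the other 4 were below it (log2 fold change -0.44, SE 0.13, adjusted p = 0.0465, edgeR). Nrp2 was not called in 13 of 21 alternatives, among them those without any of untreated libraries 1 to 5 or treated libraries 7 to 10, with a highest adjusted p of 0.343. Pgf, placental growth factor, a ligand of VEGFR1, had a log2 fold change of 0.59 (SE 0.20, adjusted p = 0.0772), and passed without treated library 6. Pdgfd, Pdgfc, Vegfb and Flt4 were at 0.45, -0.30, 0.18 and 0.16, and Pdgfrb, Pdgfra, Vegfd, Pdgfa and Vegfc at 0.09, -0.08, 0.07, 0.05 and -0.0046, none past the threshold.

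Among 11 modulators of angiopoietin and TIE signalling that were tested, 1 rose and none fell, with a median log2 fold change of -0.12, a count near the 11.3% of all genes called. Ptprb encodes VE-PTP, the endothelial phosphatase that removes phosphate from TIE2 and restrains it. It was almost constant in untreated libraries, at 34.7, 34.7, 35.0, 35.1 and 35.4 CPM, and stood at 44.8, 45.7, 44.0, 43.6 and 40.7 CPM in treated ones. The groups lay far apart for their spread (1.25-fold, log2 fold change 0.32, SE 0.05, adjusted p = 0.00138, edgeR), and Ptprb passed in 20 of 21 alternative analyses. The exception, with an adjusted p of 0.0920, was the analysis without untreated libraries 1 to 3. Dok2, Angptl4 and Angptl1, with the next smallest p, had log2 fold changes of -0.68, -0.31 and -0.64 and did not pass, although Angptl4 was called lower without treated library 6. With the pan-endothelial covariate Itgb1 was called lower. Angpt4 was below the count minimum.

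Of 24 genes that carry or modulate the VEGF signal, 2 rose and 2 fell (median log2 fold change 0.03), beside 6.61% higher and 4.65% lower over all genes. Sema3a, a secreted semaphorin that binds neuropilin 1, fell from 25.1 ± 2.31 to 17.1 ± 2.15 CPM (edgeR, adjusted p = 0.00354, SD with n = 5 each), and all treated libraries were below all untreated ones. Gipc1, an adaptor that binds the tail of neuropilin 1, rose 1.18-fold, the kinase gene Src rose 1.12-fold, and Cdc42, a small GTPase, was 1.10-fold lower. Src and Cdc42 were not called in 12 and 13 of 21 alternatives and Gipc1 in 2. Without untreated libraries 1 to 3 no gene was called in this list, the other family genes, the modulators, the transcription factors, the Notch list or the Wnt list. Both counts here were 1 without any of untreated libraries 1, 3 and 4 or treated libraries 7 to 10. The number higher was also 1 without treated library 6, and the number lower was 1 without untreated library 2. The phospholipase gene Plcg1 and the kinase gene Akt1, picked here after their values were seen, had log2 fold changes of 0.03 and 0.05.

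Endothelial transcription factors were higher in 4 of 19 cases and lower in none (median log2 fold change 0.14, beside 6.61% higher over all genes). Klf2, a factor induced by blood flow over endothelium, rose 1.59-fold from 15.8 ± 2.23 to 25.0 ± 2.72 CPM (edgeR, adjusted p = 0.00215, SD with n = 5 each), with no overlap between the groups. Epas1, which encodes HIF-2 alpha, rose 1.25-fold from 131 ± 9.96 to 163 ± 13.2 CPM. Klf4 rose 1.46-fold, and Sox18, a SOXF relative of Sox17, rose 1.39-fold from 20.9 ± 2.59 to 29.0 ± 6.08 CPM (n = 5 each, SD). Sox7, the remaining SOXF gene, picked here after its value was seen, had a log2 fold change of 0.07 (SE 0.13). Klf4 and Sox18 were each not called in 9 of 21 alternatives, and the count of 4 was 2 without any of untreated libraries 1, 3 and 4 or treated libraries 6 and 7. It was also 2, Epas1 and Klf2, with the pan-endothelial and with the red blood cell covariate.

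Genes of Notch signalling and of tip cells, the leading cells of vessel sprouts, were higher in 4 of 18 cases and lower in none (median log2 fold change 0.13, beside 6.61% higher over all genes). Notch4, an endothelial Notch receptor gene, rose 1.42-fold from 11.3 ± 1.77 to 16.1 ± 1.26 CPM (edgeR, adjusted p = 0.0101, SD with n = 5 each), without overlap. The netrin receptor gene Unc5b rose 1.34-fold, Apln, which encodes the peptide apelin, rose 1.33-fold, and Ptprb is the fourth. Dll4, the ligand that VEGF-A induces in tip cells, had a log2 fold change of 0.36 (SE 0.16, adjusted p = 0.166), a gene picked here after its value was seen. Without untreated library 3 or 4, and with the pan-endothelial covariate, the count of 4 was 2, and Apln was not called in 11 of 21 alternatives.

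**Figure D5:**
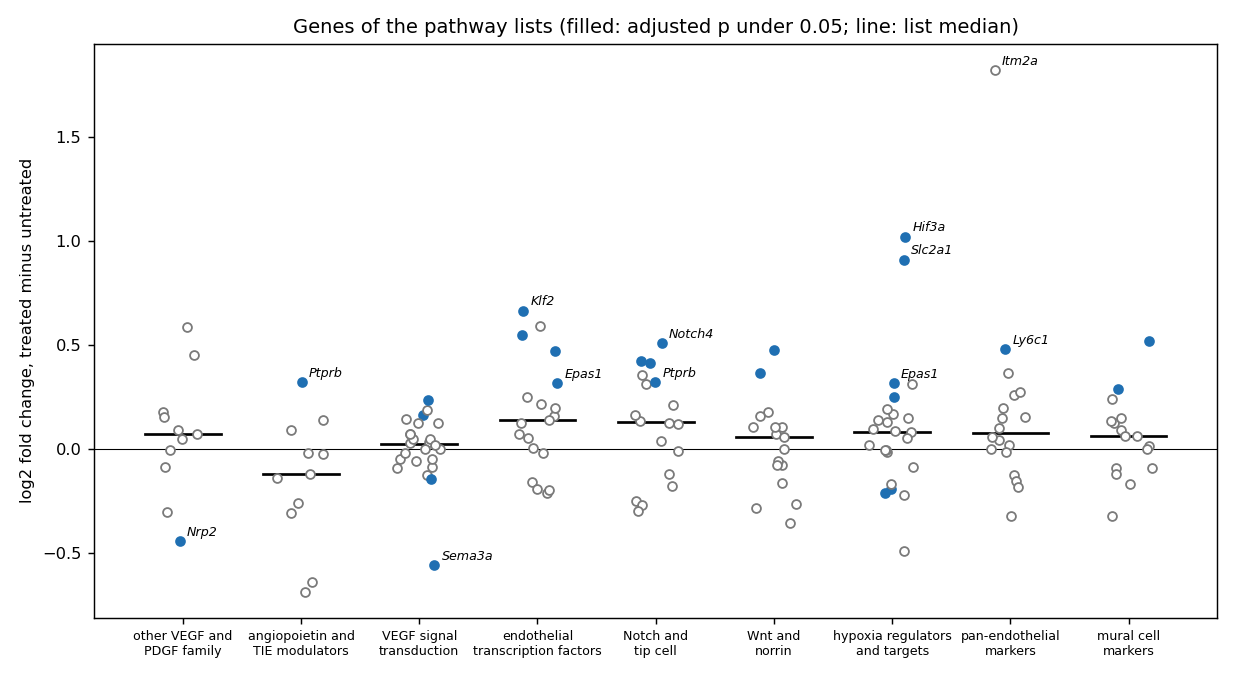
Log2 fold change, treated minus untreated, of the tested genes of 9 lists around the pathway, each dot a gene, filled where the adjusted p is under 0.05, with a line at the list median. The medians lie between -0.12 and 0.14, and Klf2, Notch4 and Ptprb rise while Sema3a and Nrp2 fall.

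Of 17 genes of Wnt and norrin signalling, which induces the blood-brain barrier, 2 rose and none fell (median log2 fold change 0.06), a count near the 11.3% of all genes called. Fzd4, the norrin receptor gene, rose 1.29-fold from 11.7 ± 0.651 to 15.1 ± 1.78 CPM (edgeR, adjusted p = 0.0213, SD with n = 5 each), and the feedback inhibitor gene Nkd1 rose 1.39-fold. Fzd4 was not called in 5 and Nkd1 in 7 of 21 alternatives, with no gene of the list higher without untreated library 4 and 1 higher without untreated library 1, 2 or 3 or treated library 7 or 9. Apcdd1 and Wnt7a, the next by p, had log2 fold changes of 0.16 and -0.35 and did not pass. Wnt7a was called lower without treated library 6, and with library totals alone 2 genes, Ctnnb1 and Wnt7a, were called lower.

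Vegfa is a classical target of hypoxia-inducible factors, so 24 identifiers of hypoxia regulators and targets (Aldoa has 2) were read beside it. Of these 4 rose and 2 fell (median log2 fold change 0.08), beside 6.61% higher and 4.65% lower over all genes. Hif3a, which encodes a factor that can oppose the other family members, rose 2.03-fold from 10.9 ± 0.976 to 22.2 ± 4.24 CPM (edgeR, adjusted p = 0.00051, SD with n = 5 each). The glucose transporter gene Slc2a1 rose 1.88-fold and the glycolytic gene Aldoa 1.19-fold, and Epas1 is given above. The value for Aldoa is that of 1 of its 2 identifiers, the other not being called. Those that fell were Hif1a, the oxygen-sensitive factor (1.14-fold lower, adjusted p = 0.0225, edgeR), and P4ha1, both named here after their values were seen. Other common targets, Pdk1, Pgk1 and Bnip3, likewise picked after the fact, had log2 fold changes of -0.0023, 0.10 and 0.08. The list sum ran from 1923 to 2108 CPM untreated and from 2176 to 2297 CPM treated. None of these genes fell without untreated library 4 or treated library 10, and 1 fell without any of untreated libraries 1 and 3 or treated libraries 6, 8 and 9. P4ha1 was not called in 10 of 21 alternatives. Without untreated libraries 1 to 3, 2 genes of this list were called higher, Hif3a and Slc2a1, and none lower.

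Markers of other cells are given beside the 11.3% of all genes called (6.61% higher and 4.65% lower). The sums of the immature neuron, astrocyte and oligodendrocyte lists did not overlap between the groups, while those of the other cell marker lists did. Of 16 mural cell genes 2 rose (Cspg4, also a marker of oligodendrocyte precursors, and Ndufa4l2) and none fell, and their sum was 401 to 465 CPM untreated and 408 to 547 CPM treated. That count is near the 11.3% of all genes called, and it was 0 without untreated library 3 or 4, with library totals alone and with the pan-endothelial covariate. It was 1 without any of untreated libraries 1, 2 and 5 or treated libraries 6, 7, 9 and 10. Ndufa4l2 was not called in 12 of 20 alternatives and Cspg4 in 7 of 21. Of 12 immature neuron genes 11 fell, with a sum of 3305 to 3836 CPM untreated and 2511 to 2632 CPM treated. Of 13 astrocyte genes 8 rose, with a sum of 3812 to 4399 CPM untreated and 4957 to 5421 CPM treated. All 12 oligodendrocyte genes rose, with a sum of 2098 to 4033 CPM untreated and 6175 to 8350 CPM treated. Without untreated libraries 1 to 3, 5 immature neuron genes were called lower, and 4 astrocyte and 10 oligodendrocyte genes higher. Of 12 microglia and macrophage genes 2 rose and 1 fell, beside 6.61% higher and 4.65% lower over all genes. Their sum was 250 to 323 CPM untreated and 246 to 272 CPM treated. The number higher was 1 without any of untreated libraries 1 to 4 or treated libraries 6, 8, 9 and 10. The number lower was 0 without untreated library 1 or 4 or treated library 7 or 10, 2 without treated library 6, and 3 without untreated library 5 or with library totals alone. Of 11 fibroblast and meningeal genes none was called. Of 10 choroid plexus and 6 red blood cell genes 1 each rose, Prlr and Slc4a1, beside 6.61% higher over all genes. Without untreated libraries 1 to 3, no mural, microglia, fibroblast, choroid plexus or red blood cell gene was called. Prlr was not called in 12 of 21 alternatives, among them those without any of untreated libraries 1 to 4 or treated libraries 6, 7, 9 and 10. Slc4a1 was not called in 10 of 20, among them those without any of untreated libraries 1, 2, 4 and 5 or treated libraries 6, 7 and 9. The sum of the red blood cell genes lay at 598 to 1468 CPM without treatment and at 976 to 1572 CPM with it. The part of neurons, astrocytes, oligodendrocytes and microglia in the changes of Angpt1, Flt1 and Sox17 was not tested.

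By the likeness of their variation among pups, after taking off each group mean of log2 CPM, the genes nearest to Kdr over the 10 libraries were Itga6, a laminin-binding integrin gene (Pearson r = 0.97), Frmd4a (0.95) and Mob3b (0.94). Nearest to Tek were Ssr4 (0.92), Ier3 (0.92) and the endothelial amino acid transporter gene Slc38a5 (0.90). Nearest to Vegfa were A230072C01Rik (0.96), Cir1 (0.95) and Gmeb1 (0.94), and nearest to Angpt1 were Gm6395 (0.96), Smc1a (0.94) and Zc3h12c (0.94). These are the highest values among all genes tested over only 10 libraries that share depth and makeup of the tissue, so they are given as a description.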

How the data were processed

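RNA from whole brains of 10 injured Swiss Webster pups was sequenced. Per the labels' protocols, RNA came from the RNeasy Mini Plus kit and 1 µg went into NEBNext Ultra II Directional libraries. Partek and mm10 are named in the submitters' processing notes. Aligner, counting program, annotation and strand setting were not given in the sources used here. The table deposited by the authors holds estimated counts (expected counts), which the authors made from their reads before deposit, for 55471 identifiers. The table calls itself normalized, but 86.8% to 87.6% of values above 0 are whole and the totals differ, so the values were rounded and analysed as counts. Names, coordinates and exons came from GENCODE M21 (GRCm38), which holds 55230 of the identifiers.

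Genes with 10 or more counts in at least 5 libraries (17101) were tested by edgeR 4.0.16 (R 4.3.3). TMM factors were 0.988 to 1.04 in untreated and 0.953 to 0.993 in treated libraries. The test was quasi-likelihood and two-sided, with Benjamini-Hochberg over all genes and a threshold of 0.05. Standard errors are the absolute fold change over the square root of F, and 95% intervals use its t distribution. Ratios within libraries had 1 count added to each gene and an exact permutation test. On simulated counts for 17101 genes, with 200 changed, this comparison recovered 57% of 1.5-fold changes and 78% of the 2-fold ones, with 5.59% of calls being unchanged genes. Smaller changes, like that of Flt1, were not simulated. The simulation changed fewer genes than the 1926 called in the data, so its rates need not hold for them.

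Alternatives numbered 21: limma 3.58.1, DESeq2 1.42.0, 3 scalings, 2 filters, robust fitting, 2 covariates, each library left out, and untreated libraries 1 to 3 left out. Named genes are the 10, all other VEGF and PDGF family genes, up to 4 of each list with the smallest p, and the 3 most alike for each of Vegfa, Kdr, Angpt1 and Tek. Further genes are named where the text says they were picked after their values were seen, where they are the called genes of a list, or where they were called in an alternative. The genes and lists were chosen with earlier results of these data known. Figures used matplotlib 3.10.9.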

Additional observations from a re-analysis of the deposited data

How the results depend on the processing

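No paired analysis was possible because the pups carry numbers 1 to 5 untreated and 6 to 10 treated, with none shared. In place of 1131 higher and 795 lower genes there were 80 and 25 without untreated libraries 1 to 3, 567 and 320 with a red blood cell covariate, and 783 and 1451 with library totals alone. Leaving out each library gave 645 to 1360 higher and 435 to 983 lower, and without untreated library 1, 3 or 4 there were 716, 645 and 649 higher and 519, 471 and 435 lower. The causes were not tested. The Flt1 to Kdr difference was 0.36 to 0.45 on the log2 scale with each library left out and 0.32 without untreated libraries 1 to 3, where 2 against 5 cannot go below an exact p of 0.0476. The Angpt2 to Angpt1 difference was 0.75 to 1.10 with each library left out. The other 3 ratios missed the threshold in all 13 alternatives. No called gene of the 10 changed direction in any alternative. The 7 genes not called stayed so in all of theirs, 21 each but 20 for Angpt2, which a filter of 100 counts removed. Of the 10 genes Angpt2 rests on the fewest counts, 28 to 98 a library.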

Other observations

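A few genes of the marker lists were high in a single treated library, picked out here after their values were seen. Col1a1, which encodes fibrillar collagen of connective tissue, was at 277 CPM in treated library 6 and at 27.4 to 46.0 CPM in the other 9 libraries. Itm2a, one of the pan-endothelial markers and also known from cartilage and muscle, was at 10.6 CPM in treated library 10 and at 0.517 to 1.09 CPM elsewhere. Neither passed the threshold (adjusted p = 0.147 and 0.132, edgeR). Treated library 6 also held the highest treated levels of Kdr, Nrp1 and Tek, at 34.9, 29.0 and 12.3 CPM.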
